A study of Arabidopsis thaliana with 6 samples.

Results

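The genes described here make, perceive or answer to strigolactones, and 10 loci were followed in shoots of wild-type (WT) and phod1 mutant seedlings of Arabidopsis thaliana. They were taken by locus identifier from the 21693 genes of the deposited table, and each of the 10 had a row. The set holds D27, MAX3, MAX4 and MAX1 of synthesis, the receptor genes D14 and KAI2, the repressor genes SMXL6, SMXL7 and SMXL8, and the target BRC1. RNA-seq was done on 3 WT and 3 phod1 samples, collected at 8 days from seedlings kept at 23 °C under 16 h of light and 8 h of darkness. Both genotypes grew on the same nutrient-rich 1/2 MS agar with 1.0% sucrose, with no other agent. The labels give neither the gene that phod1 affects nor its allele, so the genotype of a library could not be checked by its own target. Whether the samples of a genotype were grown apart is not stated either, and each p-value rests on the spread among these samples alone, which may be technical.

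Strigolactones are carotenoid-derived hormones that restrain shoot branching and, once released from roots, attract mycorrhizal fungi. The isomerase D27 and the cleavage enzymes MAX3 and MAX4 turn a carotenoid into carlactone in the plastid, and the cytochrome P450 MAX1 oxidises carlactone further. The hydrolase D14 binds the hormone, joins the F-box protein MAX2 and marks SMXL6, SMXL7 and SMXL8 for breakdown, which frees genes such as BRC1 from repression. KAI2, the sister of D14, perceives karrikins from smoke and acts through MAX2 on SMAX1 and SMXL2. Low phosphate is known to raise strigolactone production in roots.

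Libraries held 33183463 to 54720319 units, and 1 sequenced fragment was worth about 4 units. Levels are CPM, counts scaled to a common library size, after TMM scaling, on which a floor of 3 fragments per library stood at 0.256 to 0.404 CPM. Floors, like counting intervals, take in counting error alone. The TMM factors ran from 0.857 to 0.907 for WT and from 1.10 to 1.17 for phod1, so the scaling moves every fold change. Without it, on library totals, the median gene had a log2 fold change of 0.39 in place of 0.014. Changes below are therefore relative to the median gene of the shoot. With TMM 1581 genes were higher and 1407 lower in phod1, against 3544 and 618 on library totals. Root tissue was scarcely seen: of 12 root markers, 8 were at or under the floor in every library, EXPA7, CASP5 and PLT2 were at 0, and the list summed to 1.11 to 1.97 CPM in each WT library and 1.34 to 2.11 CPM in each phod1 library. Of 8 shoot markers, 7 were tested: the meristem genes STM and KNAT1 rose and the light-harvesting genes CAB1 and LHCB3 fell, while AS1, FIL and YAB3 did not pass. RBCS1A, a Rubisco small subunit gene, held 538966 units (18141 CPM) in WT 1 and 0 or 1 unit in each of the other 5 libraries. It was not tested. Single libraries stood apart at other genes too, and not only WT 1. YAB3 held 90 units in WT 1, against 1226 and 777 in WT 2 and WT 3. CZF1, the gene next to SMXL8, held 97 units in phod1 3, against 1898 and 1826 in phod1 1 and phod1 2. SMXL7 was low in WT 2, as given below. The part of such readings in other values was not tested. Values of strigolactone and named pathway genes without WT 1 are given where they changed a call or a sign.

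Of the strigolactone genes, MAX1 rose and D27, D14 and KAI2 fell in phod1 shoots. The MAX1 transcript was 3.02 times as abundant as in WT, D27 was at 44.9% of its WT level, and the receptor genes D14 and KAI2 were at 64.3% and 68.1% of theirs. The SMXL6, SMXL7 and SMXL8 transcripts were readily detected in both genotypes and none of them passed the test. Transcripts of MAX3, MAX4 and BRC1 lay near or under the detection floor. In the quasi-likelihood test of edgeR, adjusted by Benjamini-Hochberg over 10803 genes, 4 of the 8 members tested passed an adjusted p of 0.05, with 1 higher and 3 lower. On library totals 1 member was higher and 0 were lower (2 at an unadjusted p under 0.05, and DESeq2 with its own size factors called 3 lower). With TMM and the replicate number as a further term, 1 member was higher and 1 lower (3 at an unadjusted p under 0.05). With TMM and genotype as the only term, 27.7% of all genes tested passed, 14.6% as higher and 13.0% as lower. The same 4 members had CPM values that did not overlap between genotypes, as did 47.6% of all genes tested. The median log2 fold change of the 8 members was -0.09, beside 0.014 over all genes tested.

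**Figure D1:**
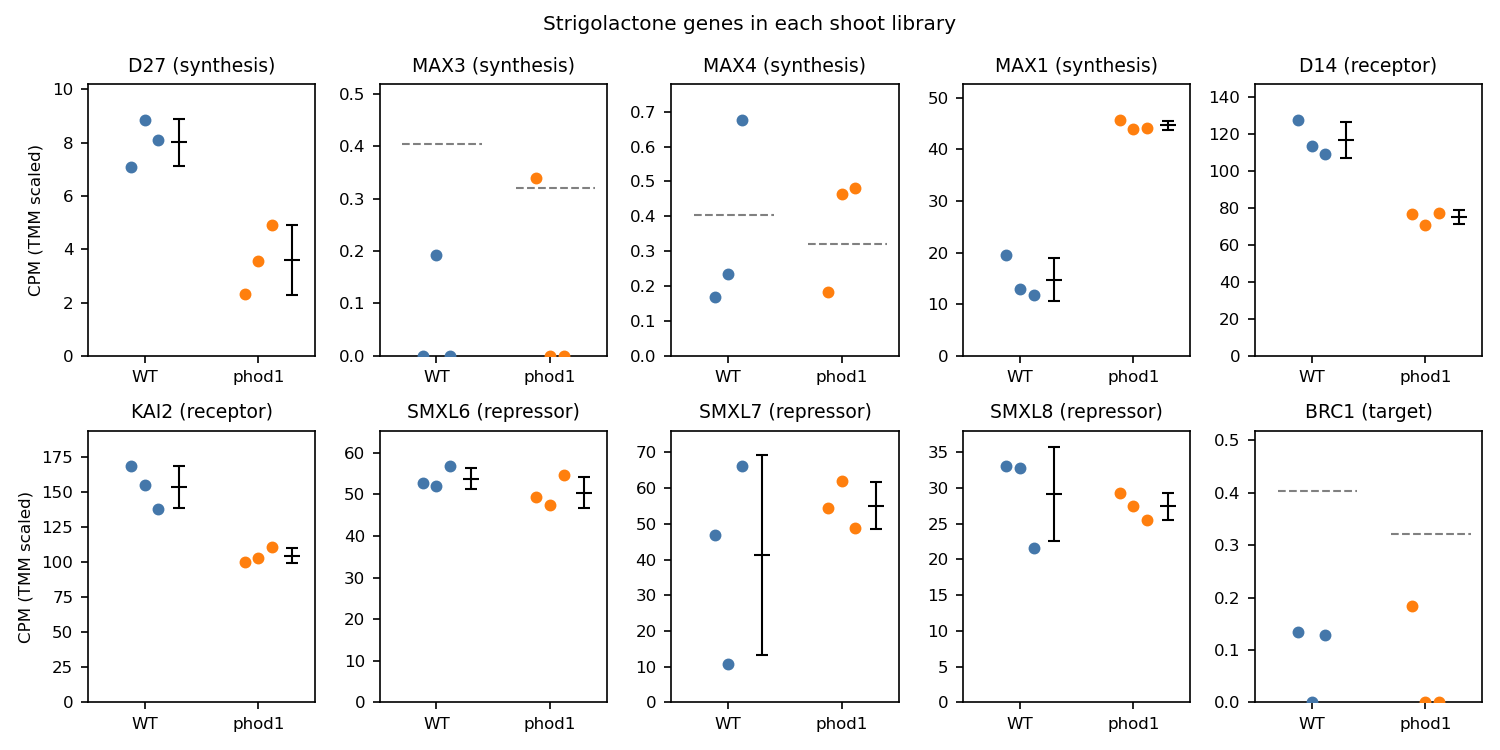
CPM (TMM scaled, y axis from 0) of each strigolactone gene, with 1 point per library in replicate order, WT in blue and phod1 in orange. Black bars give the mean and SD of 3 libraries, and in the panels of MAX3, MAX4 and BRC1 a dashed line gives instead the highest floor of 3 fragments in each genotype. The 3 phod1 values of MAX1 lie at 44.0 to 45.7 CPM, above the WT values of 11.8 to 19.6 CPM.

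MAX1 (AT2G26170, CYP711A1, on chromosome 2) was the member of the set that rose. It stood at 19.6, 12.9 and 11.8 CPM in WT 1 to 3 and at 45.7, 44.0 and 44.1 CPM in phod1 1 to 3. Every phod1 library was more than 2 times as high as the highest WT library, and the phod1 libraries lay within 2 CPM of each other. The mean went from 14.8 ± 4.22 to 44.6 ± 0.942 CPM (SD, n = 3 each), and the log2 fold change was 1.60 (SE 0.212, 95% interval 1.07 to 2.12, adjusted p = 0.00400 by edgeR). Of all genes tested, 94.6% had a smaller log2 fold change. The call held under all 12 alternatives, with values from 1.46 to 1.98. The annotated end of MAX1 overlaps that of its neighbour IQD6 by 71 bases in the TAIR10.1 annotation. IQD6 had a mean of 11.6 ± 0.686 CPM in WT and of 8.99 ± 1.07 CPM in the mutant and did not pass (adjusted p = 0.0980).

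D27 (AT1G03055, on chromosome 1), which acts before MAX1 at the start of the pathway, differed the other way. It was read at 7.10, 8.86 and 8.09 CPM in the WT libraries and at 2.33, 3.55 and 4.92 CPM in the phod1 libraries. The genotypes did not overlap, but the phod1 libraries were spread over a range of about 2-fold. The mean fell from 8.01 ± 0.879 to 3.60 ± 1.30 CPM (SD, n = 3 each), and the log2 fold change was -1.16 (SE 0.292, 95% interval -1.88 to -0.43, adjusted p = 0.0338 by edgeR). With the 89 to 415 units behind each value, this is the least deeply read of the 4 called members. Its call was lost without WT 1, WT 2, WT 3 or phod1 2 (adjusted p = 0.0626, 0.0929, 0.0808 and 0.0957) and on library totals (-0.78, adjusted p = 0.0728). The call was also lost by edgeR with the replicate number as a further term (-1.21, adjusted p = 0.0565).

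MAX3 (AT2G44990, CCD7, on chromosome 2) and MAX4 (AT4G32810, CCD8, on chromosome 4), the enzymes that cleave the carotenoid backbone, were barely read in these shoots. MAX3 held 0, 9 and 0 units in WT 1 to 3 and 13, 0 and 0 units in phod1 1 to 3, and it was too low to be tested. Only the 13 units of phod1 1 exceeded the floor of 12 units, so no fold is given. MAX4 held 5, 11 and 21 units in WT and 7, 18 and 18 units in phod1, or 0.168, 0.235 and 0.676 CPM and 0.183, 0.464 and 0.481 CPM. The genotypes overlapped, and 1 WT library and 2 phod1 libraries exceeded the floor. The log2 fold change of MAX4 was 0.07 with a 95% interval of -1.66 to 1.81 (adjusted p = 0.954 by edgeR). That interval takes in a 2-fold difference in either direction, so such a difference is neither shown nor excluded. Leaving out WT 1, WT 2, phod1 2 or phod1 3 turned the sign of the MAX4 value. In the TAIR10.1 annotation MAX4 overlaps AT4G32820, which had no row, by 330 bases. D27 and SMXL8 also overlap a neighbour without a row, by 24 and 156 bases. Whether fragments were shared in these overlaps was not tested.

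Both receptor genes were lower in phod1. D14 (AT3G03990, on chromosome 3) stood at 127.5, 113 and 109 CPM in WT and at 76.7, 70.9 and 77.5 CPM in phod1. The lowest WT library was above the highest phod1 library by over 30 CPM, more than the range within either genotype. Its mean fell from 117 ± 9.60 to 75.0 ± 3.60 CPM (SD, n = 3 each), and the log2 fold change was -0.64 (SE 0.0928, 95% interval -0.87 to -0.41, adjusted p = 0.00557 by edgeR). KAI2 (AT4G37470, on chromosome 4) stood at 168, 155 and 138 CPM in WT and at 100.1, 103 and 110.5 CPM in phod1. The genotypes of this gene did not overlap either. Its mean fell from 154 ± 15.1 to 105 ± 5.32 CPM, with a log2 fold change of -0.55 (SE 0.0993, 95% interval -0.80 to -0.31, adjusted p = 0.0109 by edgeR). In 15.4% and 18.1% of all genes tested the log2 fold change was below that of D14 and of KAI2.

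The calls of D14 and KAI2 held with any 1 library left out (adjusted p from 0.0108 to 0.0237 and from 0.0105 to 0.0446). With the replicate number as a further term in edgeR, D14 kept its call (adjusted p = 0.0386). KAI2 lost its call there (-0.55, adjusted p = 0.0693). On library totals the log2 fold changes were -0.26 (adjusted p = 0.0620) for D14 and -0.17 (adjusted p = 0.167) for KAI2, and neither passed. Against the median gene the differences were -0.65 and -0.57 with either scaling. In bulk shoots, fewer cells of a type and less RNA per cell cannot be told apart. AT3G04000, a direct neighbour of D14 in the TAIR10.1 annotation that does not overlap it, moved the opposite way. It went from 8.88 ± 1.45 to 19.9 ± 2.37 CPM (log2 fold change 1.16, adjusted p = 0.00535 by edgeR). Whether fragments were shared between these models was not tested.

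MAX2 (AT2G42620), the F-box gene through which both receptors act, was lower as well. It read 78.0, 80.9 and 77.8 CPM in WT and 46.8, 52.5 and 40.9 CPM in phod1, with no overlap. The log2 fold change was -0.76 (SE 0.113, adjusted p = 0.00600 by edgeR), and on library totals it was -0.37 (adjusted p = 0.0699). Ratios within a library do not depend on scaling, and 3 of them were compared among D14, KAI2 and MAX2 after the values had been seen. The ratio of D14 to KAI2 units was 0.758, 0.732 and 0.791 in WT and 0.766, 0.686 and 0.701 in phod1. These ratios overlapped between genotypes (0.760 ± 0.0293 and 0.718 ± 0.0424, n = 3 each, exact two-sided permutation test p = 0.3, adjusted over the 3 ratios p = 0.45). The ratios of D14 to MAX2 and of KAI2 to MAX2 overlapped too (exact permutation p = 0.6 and 0.3, adjusted p = 0.6 and 0.45). With 3 against 3 libraries this exact permutation test cannot go below p = 0.1, so equal changes of the 3 genes are not shown by it.

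**Figure D2:**
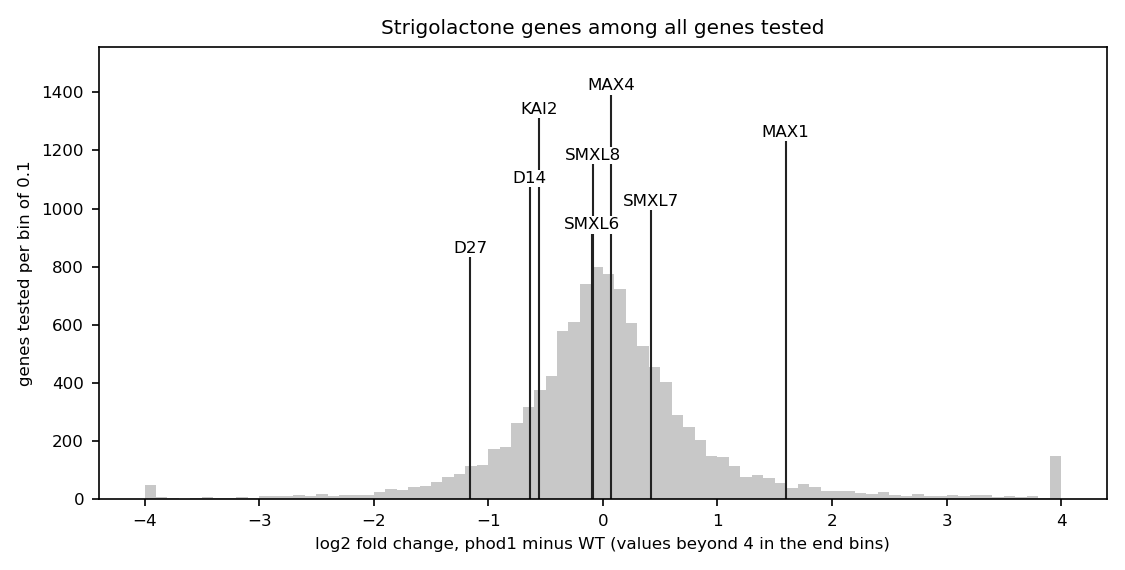
Number of genes tested (y axis) per bin of 0.1 of log2 fold change, phod1 minus WT (x axis), in grey, with the 191 genes beyond 4 placed in the end bins. Lines mark the 8 strigolactone genes that were tested: MAX1 at 1.60 lies to the right of 94.6% of genes and D27 at -1.16 to the right of 6.08%, while SMXL6, SMXL8 and MAX4 lie near the centre.

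The repressor genes did not pass the test. SMXL6 (AT1G07200, on chromosome 1) stood at 52.8, 51.9 and 56.7 CPM in WT and at 49.3, 47.4 and 54.55 CPM in phod1. The genotypes overlapped, and the log2 fold change of -0.09 had a 95% interval of -0.33 to 0.14 (adjusted p = 0.525 by edgeR). A change of SMXL6 as large as that of D14 lies outside this interval. On library totals its sign turned, to 0.28 (adjusted p = 0.0678), while its distance from the median gene stayed at -0.11.

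SMXL8 (AT2G40130, on chromosome 2) stood at 32.99, 32.8 and 21.6 CPM in WT and at 29.3, 27.45 and 25.5 CPM in phod1. All phod1 values lay between the WT values, with a log2 fold change of -0.09 (95% interval -0.55 to 0.38, adjusted p = 0.785 by edgeR). Its sign turned on library totals (0.30) and without WT 1 or WT 2 (0.015 and 0.013). SMXL7 (AT2G29970, on chromosome 2) stood at 46.95, 10.9 and 66.1 CPM in WT and at 54.5, 61.9 and 48.8 CPM in phod1. WT 2 was over 4 times lower than the other WT libraries, although it was the deepest library of the study. The log2 fold change was 0.42 with a wide interval (-1.08 to 1.91, adjusted p = 0.671), and without WT 2 it was -0.03 (adjusted p = 0.934). FAD3, the next gene, held 2768, 4228 and 3278 units in WT 1 to 3, with no low value in WT 2.

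BRC1 (AT3G18550, on chromosome 3), which encodes a TCP transcription factor that holds axillary buds dormant, was not measurable in these shoots. It held 4, 0 and 4 units in WT and 7, 0 and 0 units in phod1, which is under the floor in every library, and no fold is given. Genes that mark axillary meristems were scarce as well: LAS read between 0.386 and 0.939 CPM in WT and between 0.209 and 0.855 CPM in phod1, with overlap. CUC3 stood at 0.505, 0.939 and 0.773 CPM in WT and at 1.41, 1.29 and 2.75 CPM in phod1, and RAX1 at 0, 0.363 and 0.0966 CPM and at 0.392, 0.438 and 0.695 CPM. Both had higher CPM in every phod1 library than in any WT library. Of all genes tested, 47.6% did not overlap between genotypes in CPM. RAX1 held 0, 17 and 3 units in WT and 15, 17 and 26 units in phod1. These units overlapped, so the gap in its CPM rests on scaling for library size. The log2 fold changes of CUC3 and RAX1 were 1.28 (95% interval 0.22 to 2.34) and 1.60 (-0.83 to 4.04). None of the 4 markers passed (adjusted p from 0.0777 to 0.820 by edgeR). REV, which is also expressed outside buds, stood at 29.5 ± 2.48 and 28.6 ± 2.34 CPM.

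**Figure D3:**
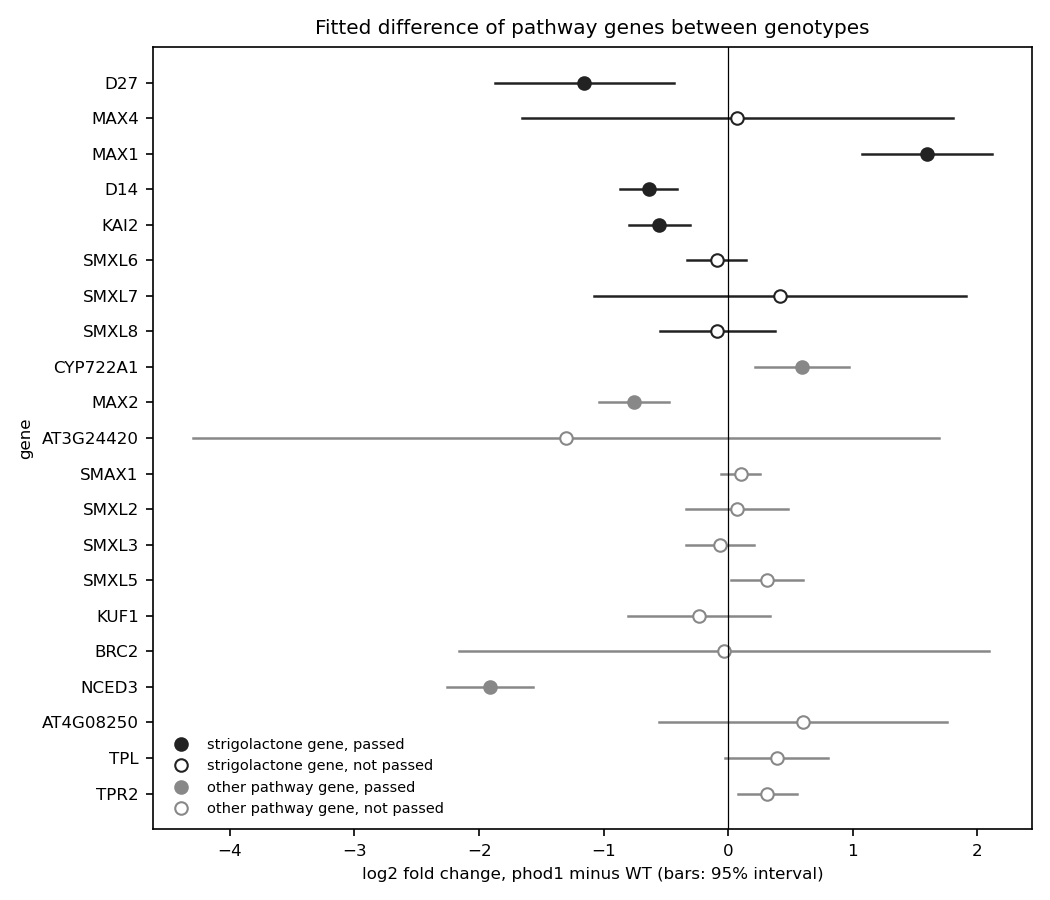
Log2 fold change, phod1 minus WT (x axis), of the strigolactone genes tested (black) and of the other pathway genes tested except AT3G13840 (grey), with 95% intervals as bars. Filled points passed an adjusted p of 0.05: MAX1 and CYP722A1 lie to the right of 0, and D27, D14, KAI2, MAX2 and NCED3 to the left.

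Beyond the 10 genes, 23 further genes of the pathway and its surroundings were listed, of which 18 had a row and 14 could be tested. Of these 14, 1 rose, 3 fell and 10 did not pass, or 28.6% called beside 27.7% of all genes. Their median log2 fold change was 0.019. LBO, of late strigolactone synthesis, and SMXL4 were among the 5 listed genes not analysed here. MAX2 fell, as given above. NCED3 (AT3G14440), the abscisic acid synthesis gene that BRC1 is known to raise through homeobox genes in buds, fell from 33.1 ± 2.16 to 8.81 ± 1.26 CPM (SD, n = 3 each). Its log2 fold change was -1.91 (SE 0.141, adjusted p = 5.80e-04 by edgeR). It was read at 30.7 to 34.8 CPM in WT, while BRC1 and the homeobox genes HB21, HB40 and HB53 were all under their floor of 12 units.

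CYP722A1 (AT1G19630), a cytochrome P450 gene, rose from 7.51 ± 0.498 to 11.3 ± 1.70 CPM (log2 fold change 0.59, SE 0.154, adjusted p = 0.0368 by edgeR). Leaving out any of WT 1, WT 2, WT 3, phod1 1 and phod1 3 ended the call, with an adjusted p between 0.0635 and 0.106. AT3G13840, annotated as a GRAS family transcription factor, held 51, 64 and 70 units in WT and 0, 8 and 0 units in phod1. That is 2 fragments in the phod1 libraries together, and the ratio of WT to phod1 was 25.9. A 95% exact Poisson interval on the phod1 fragments alone, with the WT level taken as fixed, ran from 7.17 to 214. In the edgeR fit the log2 fold change was -4.61, with a 95% interval of -7.39 to -1.83. AT3G13840 passed the test (adjusted p = 0.0304 by edgeR). It did not pass when any of the same 5 libraries was left out, with an adjusted p between 0.0686 and 0.0878.

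SMAX1 (AT5G57710), the repressor that KAI2 signalling removes, stood at 181, 179 and 181 CPM in WT and at 194, 188 and 198.5 CPM in phod1. Its values did not overlap, but the log2 fold change of 0.10 (95% interval -0.06 to 0.26) did not pass (adjusted p = 0.300 by edgeR). On library totals SMAX1 passed (0.48, adjusted p = 0.00349), close to the shift of 0.39 of the median gene there. AT3G24420, annotated as a hydrolase of the superfamily of D14 and KAI2, held 22, 24 and 4 units in WT and 0, 4 and 17 units in phod1 and did not pass (adjusted p = 0.490).

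Other measures moved with the genotype beside these genes. The light-harvesting gene CAB1 fell from 61886 ± 8940 to 34764 ± 2699 CPM and LHCB3 by 1.02 on the log2 scale. This is in the same direction as D27, D14, KAI2 and MAX2. The meristem gene STM rose from 2.57 ± 0.176 to 7.36 ± 1.28 CPM and KNAT1 from 5.55 ± 1.43 to 14.5 ± 2.55 CPM, in the direction of MAX1. The shoot markers AS1, FIL and YAB3 did not pass, with log2 fold changes of 0.03, -0.12 and -0.07. Of all genes tested 14.6% were called higher and 13.0% lower, so a shared direction says little by itself. The part of cell composition in the changes of the strigolactone genes was not tested.

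Profiles over the 6 libraries were compared by the root mean square difference of log2 CPM centred on each gene's mean. TGA7, a bZIP transcription factor gene (0.0801), and the sucrose synthase gene SUS3 (0.104) were most like MAX1. The genes most like D14 were CDSP32 (0.0242) and NHL3 (0.0436), and those most like SMXL6 were PLSP1 (0.0163) and APY2 (0.0256). This measure is small for any gene with a like fold change and spread. The log2 fold changes of these genes were 1.60 and 1.56, -0.64 and -0.63, and -0.09 and -0.11.

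**Figure D4:**
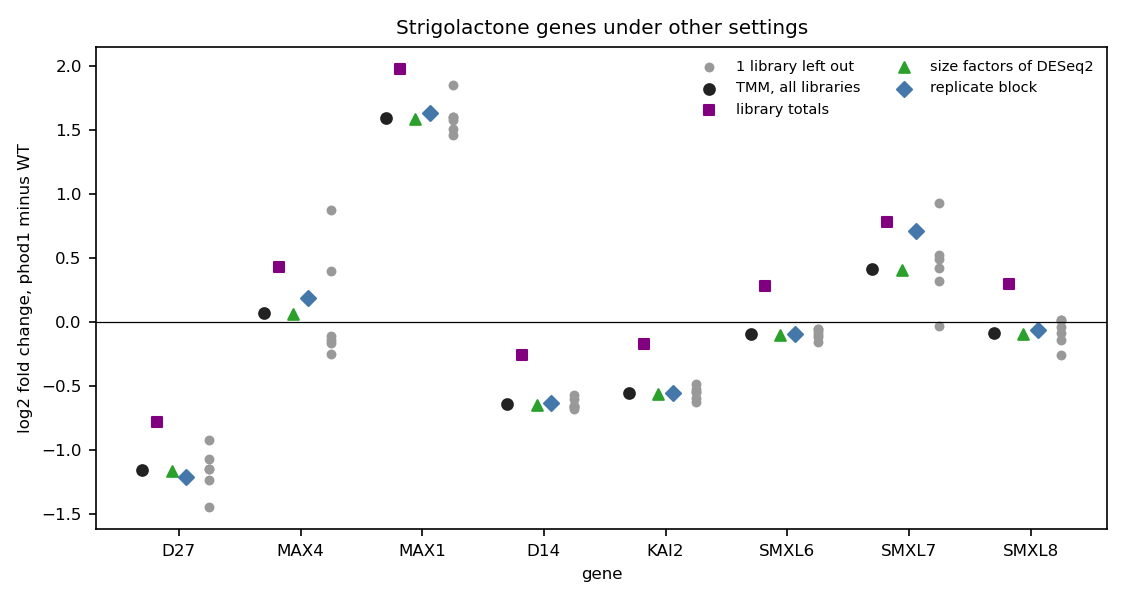
Log2 fold change, phod1 minus WT (y axis), of each tested strigolactone gene (x axis) with TMM and all libraries (black), on library totals (purple squares), with the size factors of DESeq2 (green triangles), with a replicate block (blue diamonds) and with 1 library left out (grey). MAX1 stays above 1.4 and D14, KAI2 and D27 below 0 in each, while SMXL6 and SMXL8 cross 0 on library totals and MAX4, SMXL7 and SMXL8 with 1 library left out.

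The authors' deposited table of phod1 against WT lists 4 of the 10 genes, the same 4 that passed here. It lists 3902 genes in all, beside the 21693 genes with counts, and its largest adjusted p is 0.04998. It therefore gives no value for the 6 genes of the set that are not listed. In the authors' deposited table the log2 fold changes were 1.59 for MAX1, -1.17 for D27, -0.65 for D14 and -0.56 for KAI2. That table was made from the same libraries and is not a second measurement. For D27 the adjusted p in the authors' deposited table was 0.00201, with an SE of 0.330.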

How the data were processed

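Per the labels, total RNA of shoots was extracted with an RNeasy kit, treated with DNase and made into libraries by an Illumina protocol. The authors deposited estimated counts per gene and sample, whole and not normalized. CASAVA 1.4, STAR, StringTie and the build TAIR10 are named, without role or order, in the submitters' processing notes; counting, strand and filter settings are not stated there. The value 4 occurred 1703 times in the table, beside 562 times for 3 and 832 times for 5, so 4 units were taken as 1 fragment. This scale is read from the values. The authors' deposited table of their comparison gives, per the file headers, a log2 fold change with its SE, p-values and adjusted p-values, a test score, and a mean normalized count (a signal value).

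All 6 sample columns were used and estimated counts were rounded, which changed no value. Genes passing filterByExpr (minimum count 10, minimum total 15; 10803 of 21693) were scaled with TMM factors and compared by edgeR 4.0.16 in R 4.3.3 (glmQLFit, glmQLFTest, two-sided, genotype as the only term, Benjamini-Hochberg adjustment over all genes tested). The SE is the log2 fold change divided by the square root of F. The fit code was also run on counts simulated from the gene means and spread of these same libraries. That run checks the code and is no support for any call. Symbols and neighbours came from the TAIR10.1 annotation, whose coordinates are not printed because the notes name TAIR10. All 10 genes, all further pathway genes that passed, MAX2, SMAX1, LBO and AT3G24420 are named. The 2 genes most like the member with the smallest p of each role are named too (pseudocount 0.25 CPM). SMXL4, CZF1, the homeobox genes and the marker genes were named after their values were seen. Members and lists were chosen with earlier results of these data known. Alternatives were the size factors of DESeq2, DESeq2 1.42.0, no filter, a replicate block, a robust fit, and each library left out; library totals were added after seeing the TMM factors.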

Additional observations from a re-analysis of the deposited data

How the results depend on the processing

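MAX1 was called, and higher, under each of the 12 alternatives, and D14, KAI2 and D27 were lower in each, with values from -0.68 to -0.26, -0.63 to -0.17 and -1.45 to -0.78. Library totals moved the counts most: 3544 genes were higher and 618 lower, 0 members were lower by edgeR (2 at an unadjusted p under 0.05; DESeq2 with its own size factors called 3), and 5 further pathway genes were higher. That setting turned SMXL6 (0.28) and SMXL8 (0.30). DESeq2 called 2 further pathway genes higher. With 1 library left out, 0 to 1 further pathway genes were higher, and the values ran from -0.25 to 0.87 for MAX4, -0.03 to 0.94 for SMXL7 and -0.26 to 0.015 for SMXL8. With a replicate block, 788 genes were higher and 712 lower, 1 member (D14) was lower (D27 -1.21, adjusted p = 0.0565; KAI2 -0.55, adjusted p = 0.0693) and 0 further pathway genes were higher (2 at an unadjusted p under 0.05; CYP722A1 0.58, adjusted p = 0.125) and 2 lower (AT3G13840 lost its call, adjusted p = 0.1045). Libraries sharing a number did not deviate together (correlations from -0.051 to 0.0074 over 3 pairs, 0 of 6 libraries closest to their own number). No pairing by number was seen, but 3 pairs cannot exclude it and the labels do not state it. The cause of the shifts between settings was not tested. MAX3, MAX4 and BRC1, read near or under the floor, stay unresolved.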
